A study of Homo sapiens with 12 samples.

Results

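The clustered protocadherins are cell-surface proteins of the cadherin superfamily, encoded by the alpha, beta and gamma gene clusters that lie one after another on the long arm of human chromosome 5. Members were the rows of both count tables whose symbol was PCDHA, PCDHB, PCDHGA or PCDHGB with a number, or PCDHAC or PCDHGC with a digit. They came to 53 of the 36762 genes in the tables, with 15 in the alpha cluster, 16 in the beta cluster and 22 in the gamma cluster. All 53 passed the filter on low counts in every comparison. The libraries came from UCLA1, a human embryonic stem cell (hESC) line, in which lines with a knockout of the TET1 catalytic domain (CDKO) were set against control lines (CTRL). TET1 is a dioxygenase that oxidises 5-methylcytosine in DNA. Both genotypes were sampled as iMeLC, incipient mesoderm-like cells an intermediate stage between the stem cells and primordial germ cell-like cells, and as hESC. Each of the 4 groups, CDKO iMeLC, CTRL iMeLC, CDKO hESC and CTRL hESC, had 3 libraries of total RNA. The labels number 3 lines per genotype, but the hESC columns carry no line number, so an iMeLC library could not be tied to its hESC library. All lines share the UCLA1 genome. The labels and protocols do not state whether a line is 1 clone.

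Each protocadherin promoter sits before its own large first exon, which encodes the extracellular cadherin repeats and the transmembrane segment. In the alpha and gamma clusters that variable exon is spliced to a short run of constant exons shared by the whole cluster, which encode a common cytoplasmic end, whereas beta genes have no shared constant exon. In neurons a few of the alternate genes are switched on per cell, with CTCF and cohesin looping a promoter to an enhancer and DNA methylation keeping unused promoters silent. The proteins bind in trans to cells with the same set, which underlies self-recognition of neurites. The C-type members (PCDHAC1, PCDHAC2, PCDHGC3, PCDHGC4 and PCDHGC5) lie at the downstream ends of the alpha and gamma clusters and, in mouse neurons, are expressed less randomly than the alternate genes.

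In GENCODE release 29 on GRCh38 the alpha genes covered chr5:140786136-141012347, the beta genes chr5:141051135-141249365 and the gamma genes chr5:141330571-141512981, all on the plus strand. The constant exons decide how alpha and gamma counts can be read, since a fragment inside them could belong to any gene of its cluster. The first 2 constant coding exons of each cluster are printed here, from the GENCODE transcripts on the plus strand, with capitals at positions where alpha and gamma carry the same base.
Alpha constant exon 1, chr5:140978949-140979007: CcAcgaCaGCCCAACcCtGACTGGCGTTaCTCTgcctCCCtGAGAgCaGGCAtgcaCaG
Gamma constant exon 1, chr5:141494807-141494865: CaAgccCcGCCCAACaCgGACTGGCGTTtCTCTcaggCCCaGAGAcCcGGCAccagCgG
Alpha constant exon 2, chr5:140982475-140982563: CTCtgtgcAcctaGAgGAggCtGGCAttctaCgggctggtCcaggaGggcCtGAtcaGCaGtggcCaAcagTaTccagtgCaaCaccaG
Gamma constant exon 2, chr5:141505393-141505481: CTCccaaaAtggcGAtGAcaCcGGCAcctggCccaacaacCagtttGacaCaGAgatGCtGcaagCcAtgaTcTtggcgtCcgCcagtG
Alpha and gamma matched at 39 of 59 positions of exon 1 (66.1%) and at 29 of 89 positions of exon 2 (32.6%). Within a cluster the exons were 1 and the same stretch of genome for all 15 alpha genes and for all 22 gamma genes.

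Every alpha gene shared at least 2866 exonic bases with its neighbours and every gamma gene at least 2181, while the beta genes shared none with each other. If reads in the constant exons had been given to every gene, no gene of that cluster could fall below that common amount. The lowest alpha gene held between 0.211% and 2.19% of its cluster's counts in any 1 library, and the lowest gamma gene between 0.19% and 0.817%. An equal amount given to every gene was thus at most that share of the cluster's counts per gene. Summed over all genes of a cluster it could be larger. Reads dealt out unevenly among members cannot be seen in gene counts. Annotated genes on the opposite strand overlapped 8 alpha, 10 beta and 1 gamma genes, and other genes on the same strand overlapped 1 alpha and 5 beta genes. The kit marks strand, but no source used here says whether the counting used it, so values of those genes are uncertain. They include PCDHA1, PCDHA10, PCDHAC2, PCDHB2, PCDHB3, PCDHB5 and PCDHB15, and not PCDHGC4 or PCDHGA11.

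A promoter was the 250 bases before and 50 after the RefSeq gene start (build GRCh38.p14), and 47 of the 53 members had such a window. PCDHA3, PCDHA13, PCDHB6, PCDHB11, PCDHGA12 and PCDHGC5 had none. The 4-base core CGCT, the centre of an element conserved among clustered protocadherin promoters, stood in 46 of the 47 windows (97.9%) on either strand, against 70% of all 35116 promoters searched the same way. So short a string does not show that a window carries the element. Whether single members, PCDHGC4 among them, carry it was not tested. The longer string AACGCT stood in 6.38% of member windows and 5.26% of all, and the TATA form TATAAA in 12.8% of member windows and 11.5% of all. Both were searched on both strands, and AACGCT contains CGCT. The windows themselves showed a longer string in each cluster, chosen after they were read. GATGTCGCT stood in 9 of 13 alpha windows, 0 of 14 beta windows, 0 of 20 gamma windows and 0.105% of all promoters. GGTGGCGCT stood in 13 of 14 beta windows, 0 alpha and 0 gamma windows, and 0.501% of all promoters. GNCGCTGT stood in 17 of 20 gamma windows, 5 of 13 alpha windows, 1 of 14 beta windows and 4.35% of all promoters. These strings contain CGCT and were read from the same windows they were counted in, so the member counts describe the windows and test nothing.

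The 32 bases around that core are shown for some of the members described next, plus strand, with CGCT in capitals. Only members whose window held the longer string of their cluster were eligible. The difference in flanks between clusters therefore follows from that choice. PCDHAC1, PCDHAC2, PCDHGB7 and PCDHGA11 held CGCT but not the longer string, and are not among them.
PCDHA1, chr5:140786088-140786119: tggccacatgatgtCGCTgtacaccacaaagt
PCDHA10, chr5:140855843-140855874: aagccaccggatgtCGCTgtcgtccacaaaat
PCDHB2, chr5:141094546-141094577: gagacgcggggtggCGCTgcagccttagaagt
PCDHB5, chr5:141135181-141135212: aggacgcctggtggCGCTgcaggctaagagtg
PCDHB15, chr5:141245316-141245347: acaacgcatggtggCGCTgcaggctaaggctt
PCDHGA6, chr5:141373837-141373868: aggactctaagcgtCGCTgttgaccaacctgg
PCDHGC3, chr5:141475882-141475913: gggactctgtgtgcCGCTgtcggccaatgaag
PCDHGC4, chr5:141484954-141484985: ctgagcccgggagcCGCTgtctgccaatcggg
Within the longer string the core lay a median of 48 bases before the start in 9 alpha windows. The median was 61 in 13 beta windows and 58 in 17 gamma windows. The ranges were 38 to 81 bases in alpha, -3 to 79 in beta and 39 to 199 in gamma windows, with -3 lying after the start. The 250 bases before the start of the 2 members whose difference between the genotypes passed the test are given whole, with CGCT on either strand in capitals (AGCG is its reverse complement).
PCDHGC4, chr5:141484780-141485029: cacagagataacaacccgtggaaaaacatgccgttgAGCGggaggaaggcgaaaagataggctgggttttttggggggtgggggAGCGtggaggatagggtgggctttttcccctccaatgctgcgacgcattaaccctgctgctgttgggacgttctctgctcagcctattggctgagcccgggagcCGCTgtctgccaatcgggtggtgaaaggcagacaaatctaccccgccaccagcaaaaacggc
PCDHGA11, chr5:141420801-141421050: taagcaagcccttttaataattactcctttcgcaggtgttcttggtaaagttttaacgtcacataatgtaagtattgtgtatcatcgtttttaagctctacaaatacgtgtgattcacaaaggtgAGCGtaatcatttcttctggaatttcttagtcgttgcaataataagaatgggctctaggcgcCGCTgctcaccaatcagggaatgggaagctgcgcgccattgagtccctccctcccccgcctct
The 300-base window of PCDHGC4 held 23 CpG sites, with an observed over expected ratio of 0.85, and that of PCDHGA11 held 12, with a ratio of 0.82. The median member window held 7 CpG sites with a ratio of 0.59, and the median of all promoters held 14 with a ratio of 0.58. Some members not called between the genotypes also had many sites or a high ratio, though most held fewer sites. PCDHAC1 had 27 sites (ratio 0.84), PCDHGC3 18 (0.69) and PCDHGB6 16 (0.85), and PCDHB4 had a ratio of 1.07. No methylation was measured in these libraries.

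Library totals ran from 52121702 to 109479071 counts in iMeLC and from 12517593 to 18855099 in hESC. Members took 17685 to 38027 counts of an iMeLC library and 6568 to 8901 of an hESC library. Levels are read counts relative to an effective library size (CPM), which was set with the trimmed mean of M values (TMM), and a call is an adjusted p under 0.05 in edgeR's quasi-likelihood test with Benjamini-Hochberg adjustment over all genes tested. TET1 itself had 304 to 356 CPM in CDKO iMeLC, 288 to 322 in CTRL iMeLC, 335 to 396 in CDKO hESC and 290 to 339 in CTRL hESC. A gene-level count does not show a deleted domain, so it does not check the genotype. The sum of 8 stem cell markers was 8110 to 9790 CPM in the hESC libraries and 5060 to 6060 in the iMeLC libraries. Libraries stood apart by other markers: 9 mesoderm markers summed to 506 CPM and 7 endoderm markers to 507 in CDKO hESC 3, against 50 to 79.1 and 44.6 to 60.7 in the other CDKO hESC libraries. CER1 is in both lists, so these sums are not independent. Among CTRL iMeLC, CTRL1106 had 219 CPM of mesoderm markers against 693 and 1160, and CTRL1101 had 923 CPM of 16 neural markers against 437 and 443.

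Expression was uneven within every cluster. Levels are compared between genes as the whole CPM of a gene per kilobase of its exon outside the shared exons, over all 12 libraries. Any reads in the shared exons that were given to a gene stay in its CPM. Alpha and gamma levels could thus be raised against beta levels. In the beta cluster PCDHB5 led with 14.9 CPM per kilobase, PCDHB2 followed with 7.68 and PCDHB3 with 2.53, while PCDHB1 had 0.0971. Gamma was led by the C-type PCDHGC3 with 9.33 CPM per kilobase, then by PCDHGB7 with 5.79 and PCDHGA10 with 5.68. PCDHAC2 with 8.2 and PCDHAC1 with 4.5 CPM per kilobase led the alpha cluster. A level of 5 CPM per kilobase or more was reached by 1 alpha, 2 beta and 3 gamma genes. With whole exon length as the divisor, which adds the shared exons, 0 alpha and 1 gamma genes reached it.

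**Figure D1:**
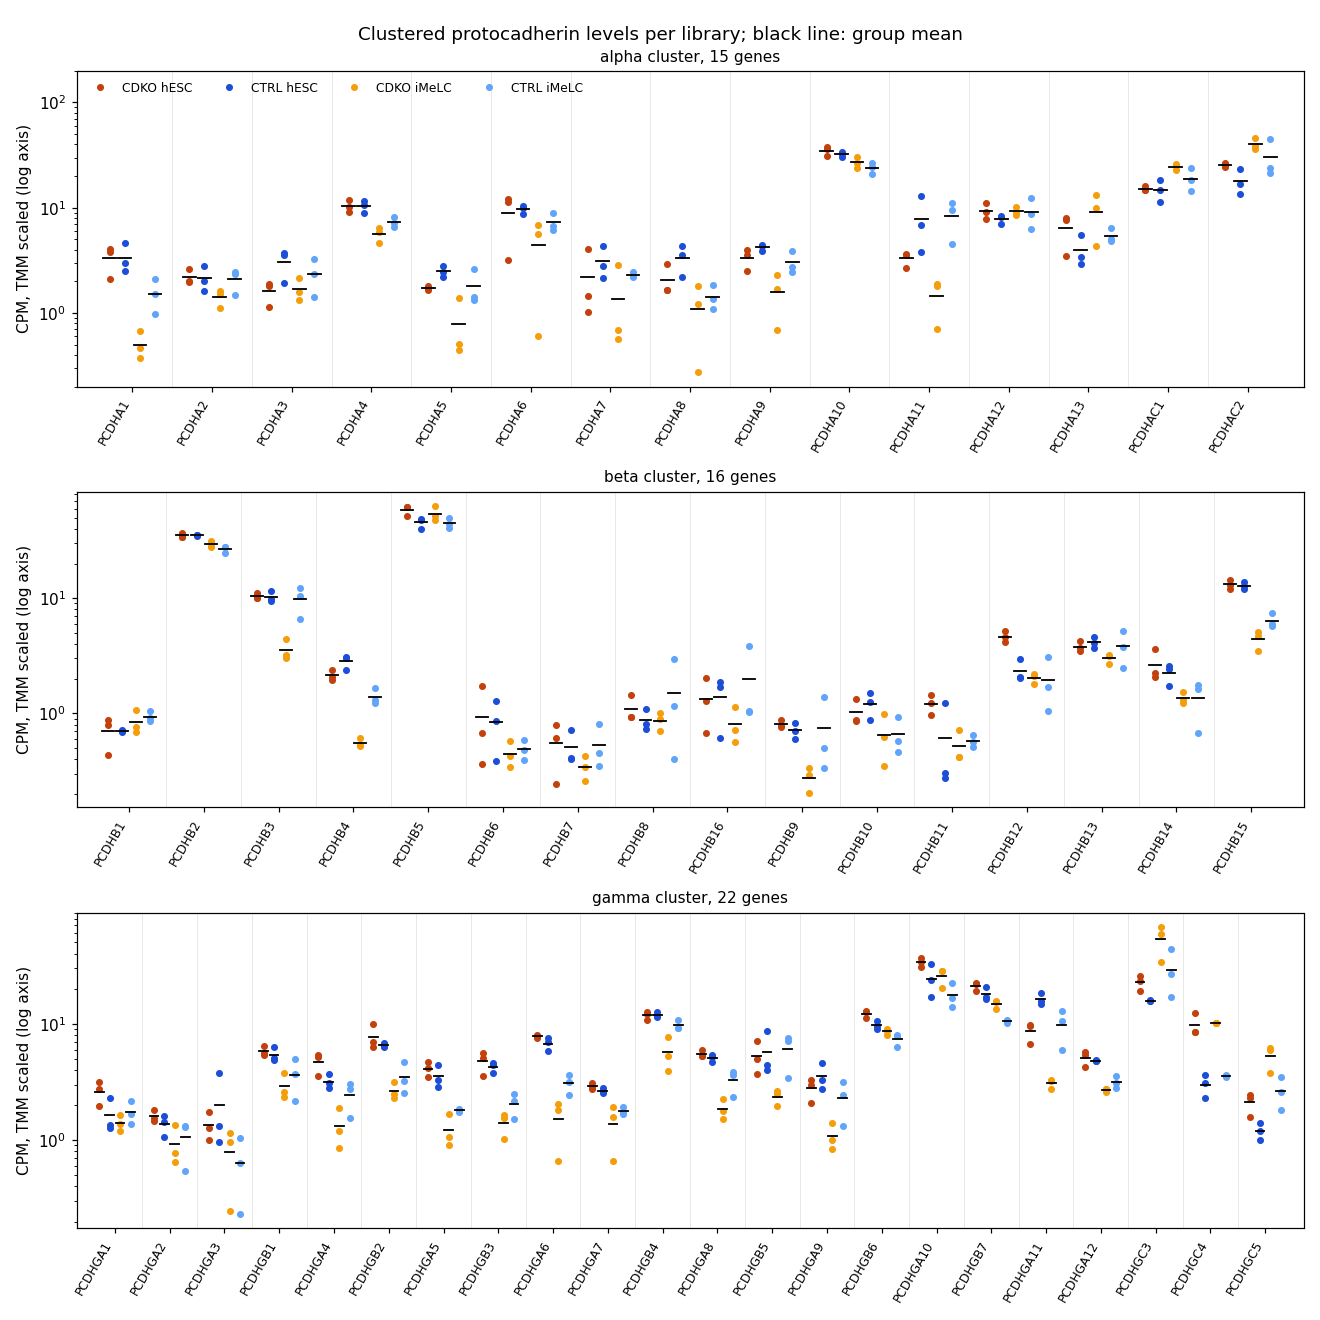
CPM (TMM scaled, log axis) of each of the 53 genes in each library, in order along the chromosome, 1 panel per cluster; points are libraries, coloured by group, and black lines are means of 3 libraries. PCDHB5 stands highest in the beta panel at 40.3 to 63.2 CPM, and PCDHB7 lies lowest in it, at a mean of 0.485 CPM over 12 libraries.

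PCDHB5 had 63.2, 51.8 and 48.2 CPM in CDKO iMeLC, against 43.8, 40.8 and 50 CPM in CTRL iMeLC. In hESC it had 62.5, 61.5 and 51.7 CPM in CDKO, against 48.7, 47.6 and 40.3 CPM in CTRL. The hESC groups did not overlap and the iMeLC groups did, and neither difference passed the test, with log2 fold changes of 0.37 ± 0.103 (SE, adjusted p = 0.123) in hESC and 0.25 ± 0.135 (adjusted p = 0.342) in iMeLC. PCDHB2 overlapped at both stages, with 27.9, 29.4 and 31.4 CPM in CDKO iMeLC and 27.8, 24.9 and 28 CPM in CTRL iMeLC. Its hESC libraries had 37.1, 34.2 and 34.1 CPM in CDKO and 35.6, 34.5 and 35.3 CPM in CTRL. PCDHGB7 had 13.4, 15.3 and 15.6 CPM in CDKO iMeLC against 10.2, 10.6 and 10.8 CPM in CTRL iMeLC, with no overlap (log2 fold change 0.46 ± 0.131, adjusted p = 0.146). In hESC it had 22.5, 19.2 and 22 CPM in CDKO and 20.5, 17 and 16.4 CPM in CTRL, and the groups overlapped.

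The first question the design puts is whether loss of the TET1 catalytic domain went with a change at either stage. PCDHGC4, the C-type gamma gene that in mouse is needed for the survival of cortical interneurons, was the only member called at both stages. It had 10.2, 10.2 and 10.1 CPM in CDKO iMeLC, against 3.56, 3.5 and 3.63 CPM in CTRL iMeLC. In hESC it had 8.45, 8.56 and 12.3 CPM in CDKO, against 3.63, 3.08 and 2.29 CPM in CTRL. Every CDKO library lay above every CTRL library at its stage, and the iMeLC groups averaged 10.2 ± 0.0491 CPM in CDKO and 3.56 ± 0.0632 CPM in CTRL (SD, n = 3 each). These iMeLC SDs are smaller than counting error alone would give, so they are no measure of the spread between lines. The hESC SDs were 2.22 CPM in CDKO and 0.67 CPM in CTRL. PCDHGC4 rose by a log2 fold change of 1.72 ± 0.226 in hESC (SE, adjusted p = 0.0146) and of 1.48 ± 0.156 in iMeLC (adjusted p = 0.0135). Leaving out CDKO hESC 2 ended the hESC call (adjusted p up to 0.0799, with a log2 fold change of 1.52 to 1.87 over the 6 omissions). In iMeLC leaving out CDKO1102, CDKO1105 or CDKO1312 ended the call (adjusted p up to 0.106), with a log2 fold change of 1.47 to 1.51 over the 6 omissions.

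PCDHGC4 lies at chr5:141484997-141512979 (ENSG00000242419), with 2793 of its 4974 exonic bases outside the shared exons. All 22 gamma genes use the same constant exons, so a read there could come from any of them. The gene counts do not show in which exon the additional PCDHGC4 reads lay.

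PCDHGA11, an alternate gene of the A type in the gamma cluster (ENSG00000253873, chr5:141421047-141512979), moved the other way. It had 9.82, 6.76 and 9.58 CPM in CDKO hESC, against 15.8, 18.4 and 14.9 CPM in CTRL hESC. PCDHGA11 had 2.76, 3.28 and 3.21 CPM in CDKO iMeLC, against 5.92, 12.8 and 10.5 CPM in CTRL iMeLC. The groups did not overlap at either stage. It fell by 0.90 ± 0.166 on the log2 scale in hESC (SE, adjusted p = 0.0352), while the log2 fold change of -1.69 ± 0.293 in iMeLC did not pass the test (adjusted p = 0.0785). The hESC call was lost in 4 of the 6 omissions of 1 library: CTRL hESC 1 and each of the CDKO hESC libraries (adjusted p 0.0298 to 0.135). A fit over all 12 libraries called it in iMeLC (adjusted p = 0.00516) and not in hESC.

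**Figure D2:**
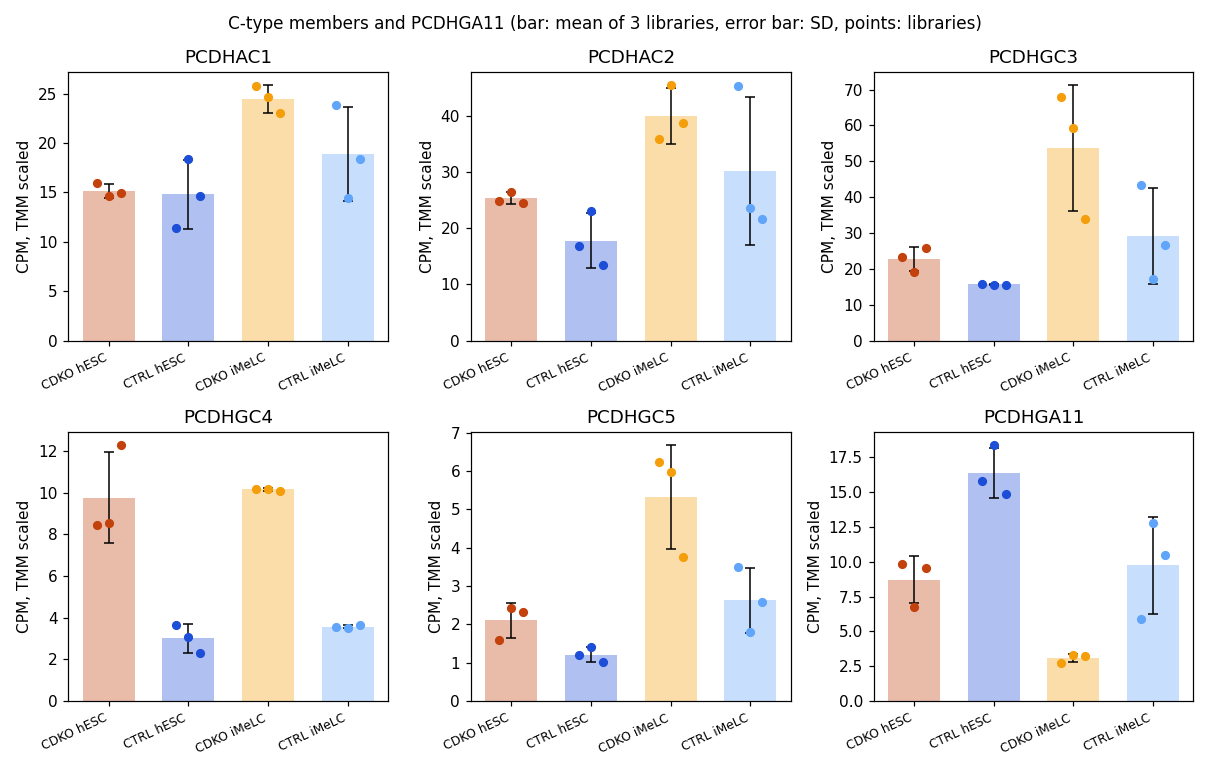
CPM (TMM scaled) of the 5 C-type members and PCDHGA11 in CDKO hESC, CTRL hESC, CDKO iMeLC and CTRL iMeLC; bars are means of 3 libraries, error bars SD and points libraries. PCDHGC4 stands at 8.45 to 12.3 CPM in every CDKO library and 2.29 to 3.63 CPM in every CTRL library, and PCDHGA11 shows the reverse order at both stages.

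In hESC 1 of 53 members was called higher in CDKO and 1 lower, 1.89% each, against 0.598% and 0.714% of the 17222 genes tested. CDKO hESC libraries lay wholly above CTRL for 7 members and wholly below for 4, while 10.2% and 11.8% of all genes did so. By sign, 35 of 53 members were higher, against 49.7% of all genes, with a median log2 fold change of 0.12 against 0.00. The cluster medians were -0.01 for alpha, 0.07 for beta and 0.22 for gamma.

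Among the other C-type members in hESC, PCDHGC3 had 23.3, 19.2 and 25.9 CPM in CDKO against 15.9, 15.6 and 15.6 CPM in CTRL (log2 fold change 0.55 ± 0.125, adjusted p = 0.0678). PCDHAC2 had 24.9, 26.5 and 24.5 CPM in CDKO hESC against 16.8, 23.1 and 13.5 CPM in CTRL hESC (0.52 ± 0.17, adjusted p = 0.178). PCDHGC5, the most downstream gamma gene, had 1.59, 2.43 and 2.31 CPM in CDKO hESC against 1.21, 1.41 and 1.01 CPM in CTRL hESC (0.82 ± 0.285, adjusted p = 0.201). All 3 had CDKO libraries above every CTRL library, and none passed the test. PCDHAC1 did not separate, with 16, 14.6 and 14.9 CPM in CDKO hESC against 11.4, 18.4 and 14.6 CPM in CTRL hESC (0.04 ± 0.166, adjusted p = 0.93). Over the C-type genes as a group, 5 of 5 fold changes were positive in hESC and 1 was called. Their summed level was 75.2 ± 4.44 CPM in CDKO hESC and 52.5 ± 8.0 CPM in CTRL hESC (SD, n = 3 each), or 16.6% ± 1.05 and 13% ± 1.64 of the CPM of all 53 members.

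DESeq2 called 3 members higher and 2 lower in hESC, where it called 1.73% and 1.89% of all genes, adding PCDHGC3 (adjusted p = 0.0157), PCDHB12 (0.0273) and, lower, PCDHA11 (0.0178). Without the filter on low counts edgeR called 6 higher and 2 lower, against 1.71% and 1.91% of all genes, adding to PCDHGC4 the genes PCDHAC2, PCDHB5, PCDHB12, PCDHGA10 and PCDHGC3, and PCDHA11 lower. The fit over all 12 libraries called 1 higher, PCDHGC4, and 0 lower, against 0.114% and 0.242% of all genes.

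In iMeLC the called member was again PCDHGC4 alone, 1 of 53 higher against 0.08% of the 19999 genes tested. edgeR called 0 lower, where 0.265% of all genes were called, and 14 members had an unadjusted p under 0.05 in that direction (26.4%, against 10.5% of all genes). In the higher direction 5 members had one (9.43%), all of them gamma genes, and no share of all genes is set beside that count. DESeq2 called 7 lower, where it called 4.14% of all genes, and the fit over all 12 libraries called 8, where it called 3.47%. The 7 that both of these called were PCDHA1, PCDHA11, PCDHB3, PCDHB4, PCDHGB4, PCDHGB5 and PCDHGA11, and the eighth was PCDHGA8. Called higher by DESeq2 were 3 members, PCDHGC4, PCDHGB7 (adjusted p = 0.0269) and PCDHGC5 (0.0227), where it called 3.15% of all genes. The fit over all 12 libraries called 2 higher, PCDHGC4 and PCDHGB7 (adjusted p = 0.0332), where it called 2.99%. CDKO libraries lay wholly below CTRL for 15 members (12.2% of all genes) and wholly above for 4 (14.3% of all genes). Fold changes were positive for 15 of 53 members, against 46.9% of all genes, and the median was -0.41 against -0.03.

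The largest log2 fold change of a member in iMeLC was that of PCDHA11, an alternate alpha gene. It had 1.8, 0.698 and 1.9 CPM in CDKO iMeLC, against 4.54, 11.1 and 9.59 CPM in CTRL iMeLC (-2.56 ± 0.476, adjusted p = 0.087). In hESC PCDHA11 had 2.67, 3.65 and 3.59 CPM in CDKO against 6.81, 12.9 and 3.81 CPM in CTRL (-1.22 ± 0.381, adjusted p = 0.162). The groups did not overlap at either stage, though CTRL hESC 3 lay close to the CDKO libraries. PCDHB3 had 3.23, 4.44 and 3.01 CPM in CDKO iMeLC against 6.65, 10.4 and 12.2 CPM in CTRL iMeLC (-1.49 ± 0.277, adjusted p = 0.087). Its hESC libraries overlapped, at 9.97, 11.1 and 10.1 CPM in CDKO and 9.45, 11.5 and 9.82 CPM in CTRL. PCDHA11 and PCDHB3 were named after their values were seen, because the alternative fits called them.

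By type, 5 of 5 C-type genes were positive in iMeLC, with a median log2 fold change of 0.86 and 1 call. The other alpha genes had 3 of 13 positive with a median of -0.58, the beta genes 3 of 16 with -0.28, the gamma A-type genes 2 of 12 with -0.50 and the gamma B-type genes 2 of 7 with -0.44. The scale bears on these signs, since scaling by library totals would lower each iMeLC log2 fold change between the genotypes by 0.10. The C-type genes would then still be 5 of 5 positive, and all members 13 of 53.

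PCDHGC3 had 68, 59.2 and 34 CPM in CDKO iMeLC against 43.5, 17.1 and 26.7 CPM in CTRL iMeLC, and the groups overlapped (0.86 ± 0.357, adjusted p = 0.241). PCDHGC5 had 6.23, 5.98 and 3.76 CPM in CDKO iMeLC against 3.49, 1.8 and 2.58 CPM in CTRL iMeLC, with no overlap (0.99 ± 0.314, adjusted p = 0.165). PCDHAC1 had 25.8, 24.7 and 23 CPM in CDKO iMeLC against 23.9, 14.4 and 18.4 CPM in CTRL iMeLC (0.35 ± 0.181, adjusted p = 0.326). For PCDHAC2 the values were 35.8, 45.5 and 38.6 CPM in CDKO iMeLC and 45.2, 23.6 and 21.6 CPM in CTRL iMeLC (0.38 ± 0.265, adjusted p = 0.452). In all 4 genes the CTRL1101 library was the highest of its group. That library was also the highest CTRL iMeLC library for the 16 neural markers (923 CPM against 437 and 443) and for 12 fibroblast markers (1300 CPM against 697 and 728). CDKO iMeLC libraries had 664 to 760 CPM of the neural and 1070 to 1400 CPM of the fibroblast markers. The part of these markers in the levels of the C-type genes was not tested, and in bulk RNA fewer cells of a type cannot be told apart from less RNA per cell.

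Leaving out CTRL1101 changed the iMeLC counts more than any other omission. Without it 6 members were called higher (all 5 C-type genes and PCDHGA10) and 7 lower (PCDHA1, PCDHA11, PCDHB3, PCDHB4, PCDHGB5, PCDHGA9 and PCDHGA11), whereas leaving out any other iMeLC library left 0 called lower. Calls over all genes rose too, to 7.1% higher and 5.69% lower without CTRL1101, against 0.08% and 0.265% with it. PCDHAC2 then had a log2 fold change of 0.79 (adjusted p = 0.0146), PCDHGC3 1.26 (0.047), PCDHGC5 1.25 (0.0461) and PCDHAC1 0.55 (0.0477). With CTRL1106 or CTRL1109 left out, PCDHGC4 was the only member called.

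**Figure D3:**
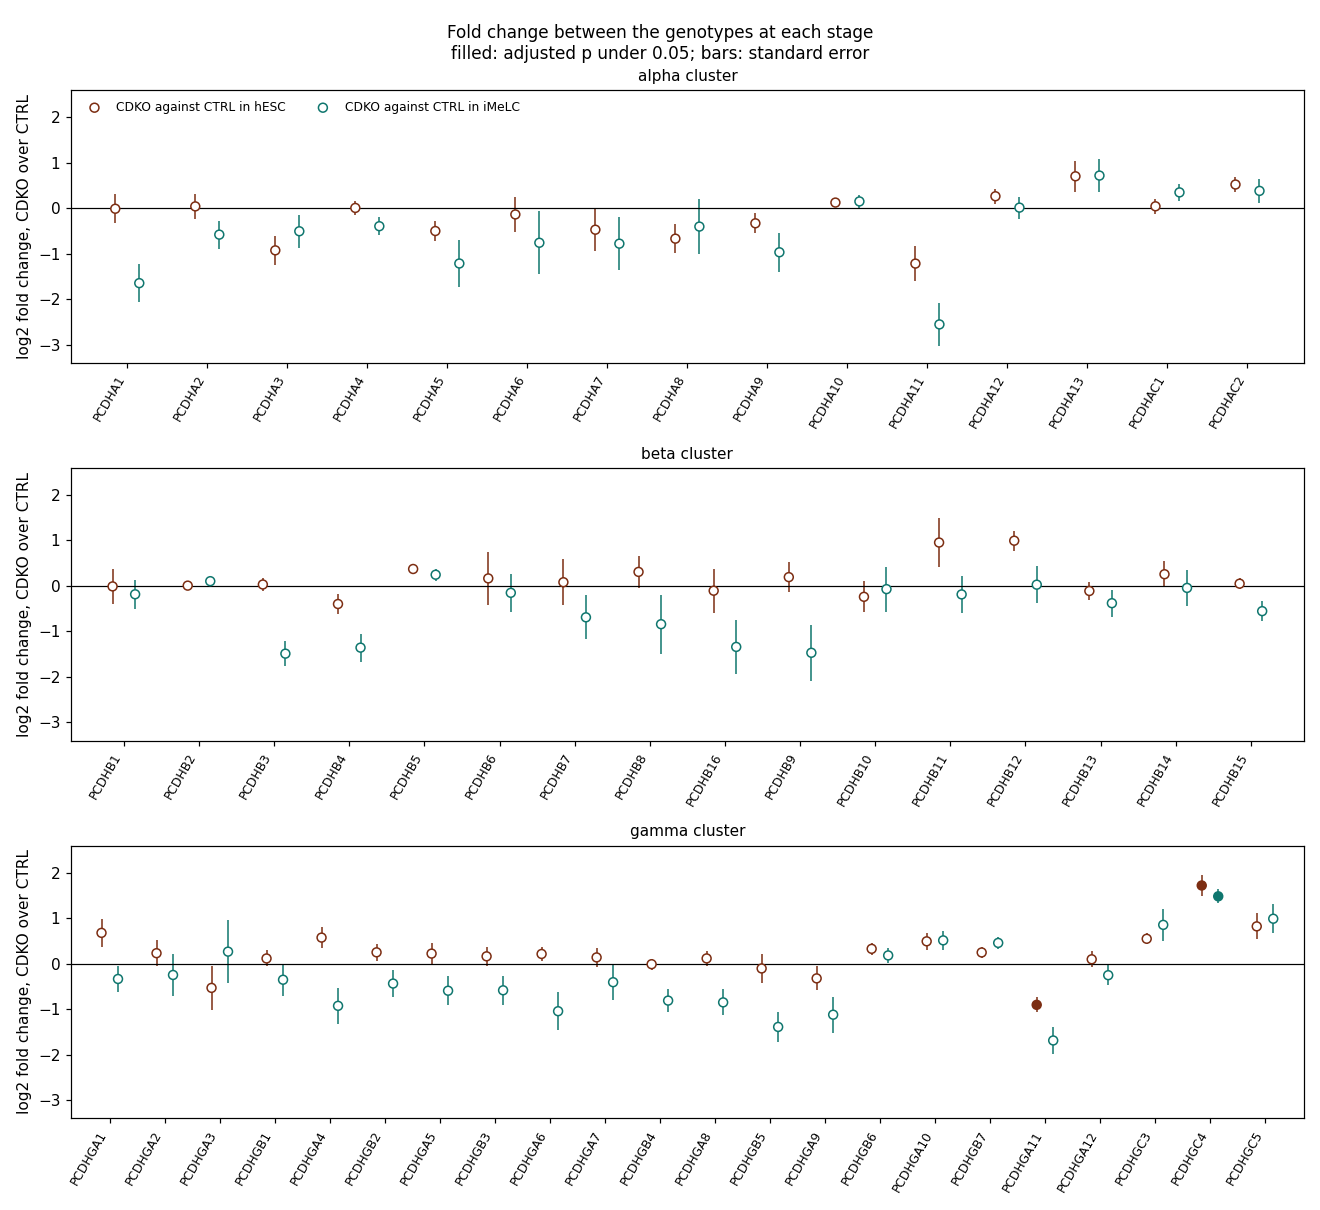
Log2 fold change of CDKO over CTRL for each gene in hESC and in iMeLC, in order along the chromosome; bars are standard errors and filled points have an adjusted p under 0.05. PCDHGC4 is filled at both stages and PCDHGA11 in hESC, and in iMeLC 38 of the 53 points lie below 0, with all 5 C-type genes above it.

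Side by side, 3 members had CDKO libraries wholly above CTRL at both stages (PCDHGB6, PCDHGC4 and PCDHGC5) and 2 wholly below (PCDHA11 and PCDHGA11). Of the 17071 genes tested at both stages 2.72% lay wholly above at both and 3.13% wholly below. Whether the genotype difference itself changed between the stages was asked with an interaction term over all 12 libraries. edgeR called 0 of 53 members, against 0.0197% of 20262 genes in either direction. At an unadjusted p under 0.05 there were 11 members, all with a negative interaction (more negative in iMeLC), or 20.8% against 5.04% of all genes in that direction. DESeq2 called 1, against 0.308% of all genes in its direction: PCDHB3 (log2 difference -1.43, adjusted p = 0.00418), for which edgeR gave -1.48 ± 0.312 (adjusted p = 0.194). Without CTRL1101 edgeR called it as well (-1.72, adjusted p = 0.014), with 0.946% of all genes called in that direction. The interaction was negative for 41 of 53 members, with a median of -0.51 against -0.01 (all genes). For PCDHGC4 it was -0.20 ± 0.276 (adjusted p = 0.836) and for PCDHGA11 -0.74 ± 0.347 (adjusted p = 0.447).

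The second question is how the clusters differed between the stages. Of the 53 members 30 fell and 4 rose in CDKO iMeLC relative to CDKO hESC, or 56.6% and 7.55%, where 27.7% and 32.1% of all 20262 genes tested were called lower and higher. In CTRL 15 fell (9 without CTRL hESC 1) and 3 rose (1 without CTRL hESC 1 or 3), 28.3% and 5.66%, against 19.9% and 29.5% of all genes. Without CTRL hESC 1, 14.7% of all genes were called lower and 24.8% higher in CTRL. Without CTRL hESC 3, 25.2% were called higher. The 9 members that fell without CTRL hESC 1 were thus near the share of all genes. The same 15 fell in both genotypes and the same 3 rose in both. Every member that rose was a C-type gene: PCDHAC2, PCDHGC3 and PCDHGC5 in both genotypes and PCDHAC1 in CDKO. hESC and iMeLC counts came as separate tables of different depth, so stage and whatever else differed between those tables cannot be told apart.

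The alternate genes that fell came from every cluster. In CDKO 7 of 7 gamma B-type genes fell, 9 of 12 gamma A-type, 8 of 16 beta and 6 of 13 alpha other than the C-type. In CTRL the numbers were 4 of 7, 5 of 12, 3 of 16 and 3 of 13. Of all genes 27.7% were called lower in CDKO and 19.9% in CTRL. The CTRL counts of the beta genes (18.8%) and of the other alpha genes were thus near the share of all genes. The median log2 fold change of iMeLC over hESC was -0.68 for the alpha, -0.84 for the beta and -1.03 for the gamma cluster in CDKO, against -0.08 over all genes. In CTRL it was -0.42, -0.11 and -0.58, against -0.01 over all genes. The gene counts of CDKO and CTRL were not tested against each other, and for single genes the interaction term gives that test.

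PCDHGA6 had the lowest adjusted p for a fall in the gamma cluster in CDKO. It had 0.668, 2.05 and 1.82 CPM in CDKO iMeLC against 8.02, 7.88 and 7.48 CPM in CDKO hESC (log2 fold change -2.34 ± 0.329, adjusted p = 4.63e-05). In CTRL it had 2.43, 3.13 and 3.65 CPM in iMeLC against 7.53, 6.97 and 5.78 CPM in hESC (-1.14 ± 0.314, adjusted p = 0.00907). In neither genotype did the stages overlap. PCDHA1, the first gene of the alpha cluster, had 0.668, 0.461 and 0.376 CPM in CDKO iMeLC against 3.76, 4.09 and 2.1 CPM in CDKO hESC (-2.73 ± 0.398, adjusted p = 6.42e-05). Its CTRL values were 0.972, 1.52 and 2.09 CPM in iMeLC and 2.97, 4.65 and 2.48 CPM in hESC (-1.14 ± 0.366, adjusted p = 0.0208). This CTRL call was lost without CTRL hESC 2 or CTRL1101.

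PCDHB15, the last beta gene, had 5.14, 4.66 and 3.5 CPM in CDKO iMeLC against 12, 13.1 and 14.5 CPM in CDKO hESC (-1.58 ± 0.174, adjusted p = 5.03e-06). In CTRL it had 6, 5.69 and 7.39 CPM in iMeLC against 12.7, 12 and 13.8 CPM in hESC (-1.01 ± 0.17, adjusted p = 0.000267). No iMeLC library reached any hESC library. The abundant PCDHA10 fell by less, with 26.7, 23.9 and 30.4 CPM in CDKO iMeLC against 37.6, 31.1 and 35.8 CPM in CDKO hESC (-0.37 ± 0.12, adjusted p = 0.0187). It had 24.3, 21 and 26.4 CPM in CTRL iMeLC against 33.9, 30.5 and 32.1 CPM in CTRL hESC (-0.43 ± 0.12, adjusted p = 0.00965). Both PCDHA10 calls were lost in omissions of 1 library: without CDKO hESC 1 or 3 in CDKO, and without CTRL hESC 1 in CTRL.

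The C-type genes were the exception. PCDHGC3 rose by a log2 fold change of 1.24 ± 0.3 in CDKO (SE, adjusted p = 0.00331) and 0.89 ± 0.3 in CTRL (adjusted p = 0.0256). PCDHGC5 rose by 1.32 ± 0.301 in CDKO (adjusted p = 0.00214) and by 1.12 ± 0.311 in CTRL (adjusted p = 0.00943). The rise of PCDHAC2 was 0.66 ± 0.253 in CDKO (adjusted p = 0.0385) and 0.76 ± 0.255 in CTRL (adjusted p = 0.0251). For PCDHAC1 it was 0.69 ± 0.188 in CDKO (adjusted p = 0.00669), and the CTRL value of 0.35 ± 0.187 did not pass the test (adjusted p = 0.14). PCDHGC4 was the C-type gene with no stage call, at 0.06 ± 0.191 in CDKO (adjusted p = 0.814) and 0.25 ± 0.2 in CTRL (adjusted p = 0.316). The PCDHAC2 rise in CDKO was lost in every omission of 1 library, and in CTRL without CTRL hESC 1, CTRL hESC 3 or CTRL1101. PCDHGC3 lost its call in CTRL without any 1 of the CTRL hESC libraries or without CTRL1101.

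As a share of all member CPM, the C-type genes took 34.7% ± 3.83 in CDKO iMeLC against 16.6% ± 1.05 in CDKO hESC, and 23.5% ± 7.42 in CTRL iMeLC against 13% ± 1.64 in CTRL hESC (SD, n = 3 each). The gamma A-type genes took 11.2% ± 1.2 in CDKO iMeLC against 17.9% ± 0.155 in CDKO hESC, and 13.7% ± 1.48 in CTRL iMeLC against 18.5% ± 1.75 in CTRL hESC. These shares do not depend on how libraries were scaled to each other. Summed CPM does: with TMM the alpha cluster summed to 130 ± 6.1 CPM in CDKO iMeLC and 130 ± 13.1 CPM in CDKO hESC, and with library totals to 112 and 146 CPM. In CTRL it summed with TMM to 125 ± 15.6 CPM in iMeLC and 126 ± 11.1 CPM in hESC, and with library totals to 114 and 142 CPM. The beta cluster summed to 104 ± 8.13 in CDKO iMeLC against 138 ± 5.37 in CDKO hESC and to 104 ± 15.2 in CTRL iMeLC against 122 ± 2.96 in CTRL hESC. The gamma cluster summed to 150 ± 18.1 in CDKO iMeLC against 185 ± 6.21 in CDKO hESC and to 127 ± 12.3 in CTRL iMeLC against 157 ± 16.1 in CTRL hESC. Scaling by totals would lower every log2 fold change of iMeLC over hESC by 0.38 in CDKO and by 0.30 in CTRL. No called member would change sign by that shift, but PCDHGC4 would, to -0.32 in CDKO and -0.05 in CTRL.

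**Figure D4:**
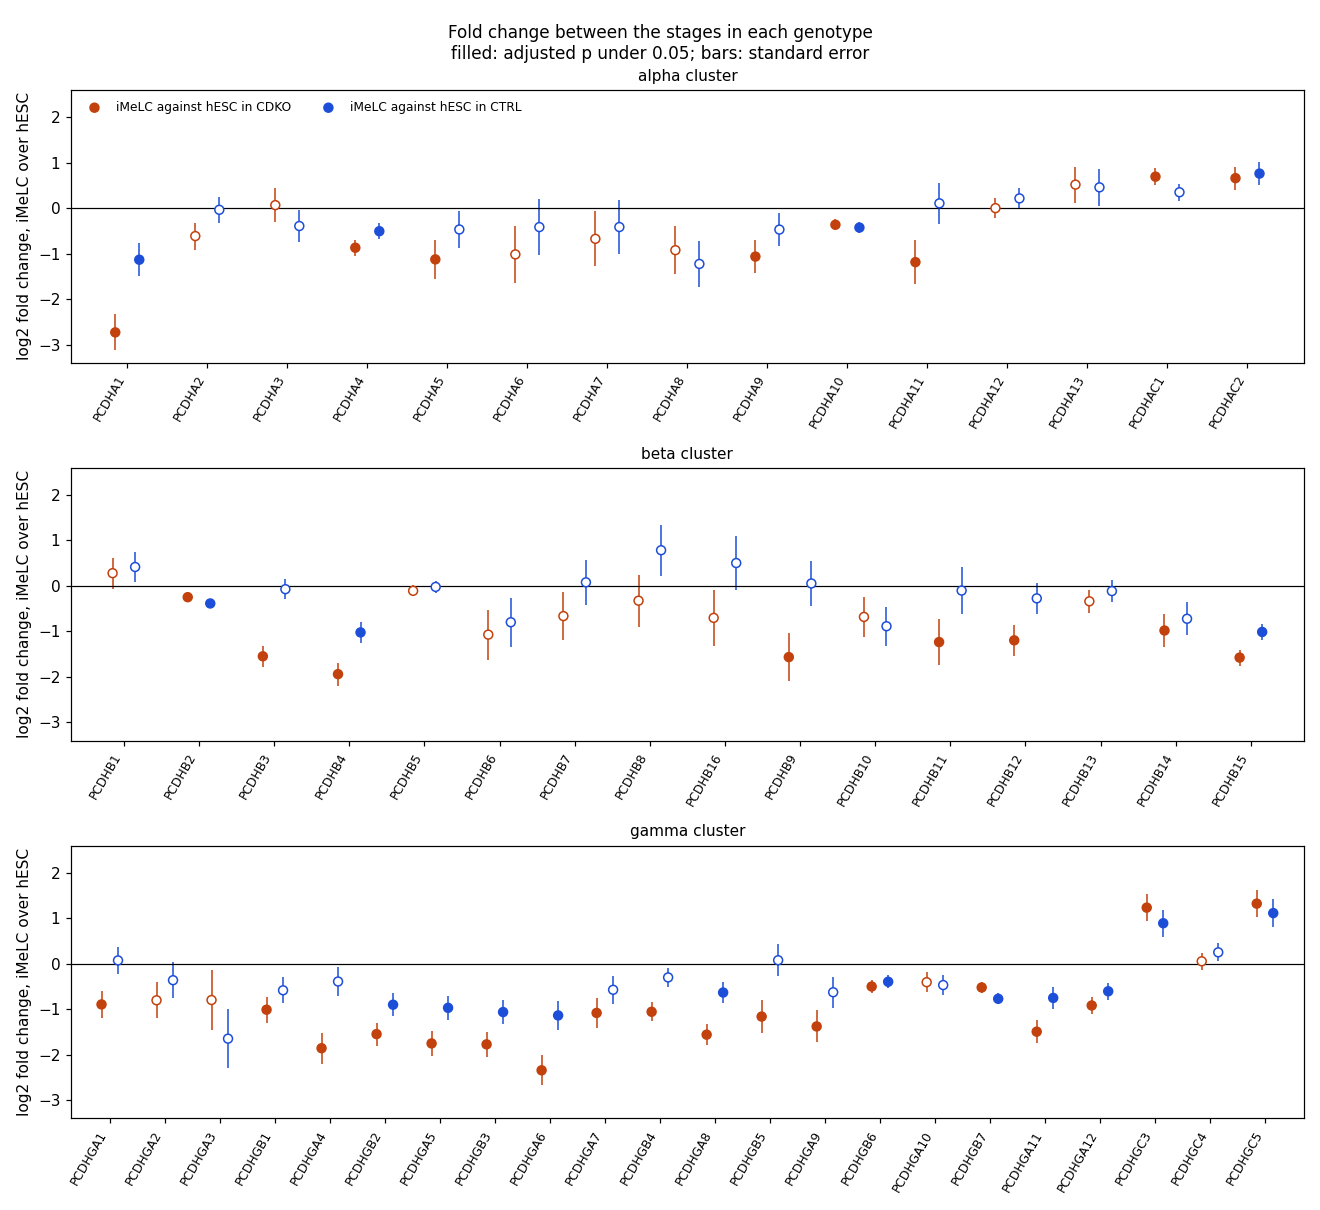
Log2 fold change of iMeLC over hESC for each gene in CDKO and in CTRL, in order along the chromosome; bars are standard errors and filled points have an adjusted p under 0.05. Filled points above 0 are PCDHAC1 and PCDHAC2 at the right end of the alpha panel and PCDHGC3 and PCDHGC5 at the right end of the gamma panel, and the other 30 filled points in CDKO lie below 0.

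Libraries of 1 group also differed among themselves. The biological coefficient of variation, which edgeR estimates per gene beyond counting error, had a median of 0.311 for members and 0.228 for all genes in iMeLC, and of 0.182 and 0.137 in hESC. Members were not matched to other genes by level. In CDKO iMeLC 8 of 53 members differed by 3-fold or more between the lowest and highest library (15.1%, against 12.9% of all genes tested), and in CTRL iMeLC 4 did (7.55%, against 15.6%). In hESC 4 members did in CDKO (7.55%, against 9.08%) and 5 in CTRL (9.43%, against 10.8%). The CDKO iMeLC members were 6 of 15 alpha, 0 of 16 beta and 2 of 22 gamma genes. In CTRL iMeLC they were 0 of 15 alpha, 3 of 16 beta and 1 of 22 gamma genes.

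PCDHA6 showed the widest spread. It had 6.84, 0.606 and 5.69 CPM in the CDKO1102, CDKO1105 and CDKO1312 iMeLC libraries, against 8.93, 6.11 and 6.78 CPM in CTRL iMeLC. In CDKO hESC it had 12.1, 3.16 and 11.3 CPM, against 10.4, 9.9 and 8.81 CPM in CTRL hESC. One CDKO library at each stage was thus far below the rest, CDKO1105 in iMeLC, with 46 counts, and CDKO hESC 2, with 65 counts. Nothing in the hESC columns says whether these are the same line. PCDHA6 was named after its values were seen.

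**Figure D5:**
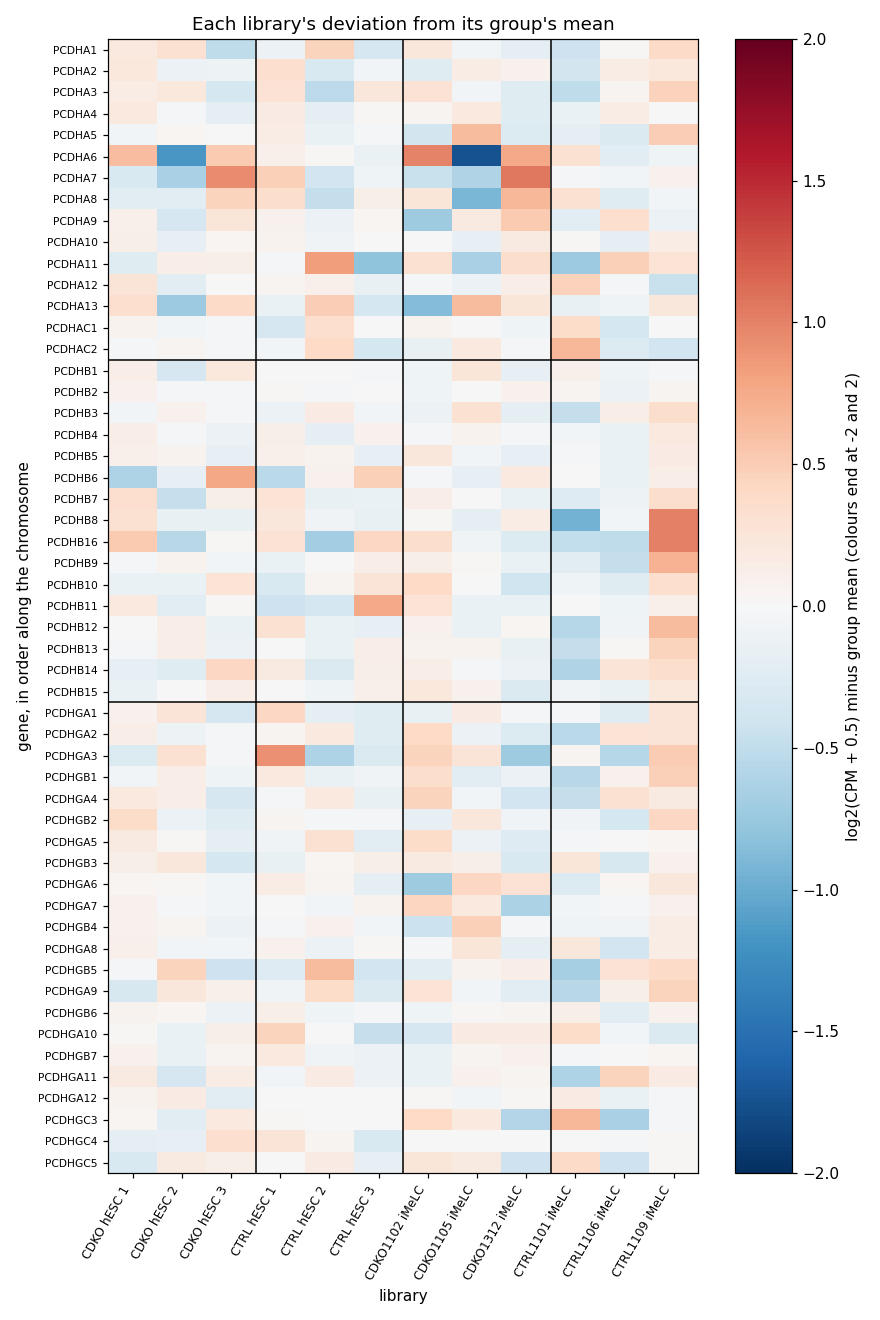
Deviation of each library from the mean of its group on the log2(CPM + 0.5) scale, for the 53 genes in order along the chromosome (rows) and the 12 libraries (columns, CDKO hESC, CTRL hESC, CDKO iMeLC and CTRL iMeLC); the colour scale ends at -2 and 2. PCDHA6 is darkest blue in CDKO1105 iMeLC and in CDKO hESC 2, at -1.74 and -1.16.

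Other genes of the pathway were counted from lists drawn up with earlier results of these data known. Regulators of exon choice and chromatin looping, among them the insulator protein CTCF, the cohesin subunits and the silencer SMCHD1, had 0 of 17 genes called by edgeR between the genotypes at each stage, with median log2 fold changes of 0.09 in iMeLC and -0.02 in hESC. DNA methylation enzymes had 0 of 8 called in iMeLC and 0 of 7 tested in hESC, and intracellular effectors, such as the kinases that bind the common cytoplasmic end, 0 of 15 at each stage. Shedding and gamma-secretase genes, which release the intracellular part, had 0 of 7 called at each stage, and genes beside or between the clusters on 5q31 0 of 24 in iMeLC and 0 of 22 in hESC. Over these 5 lists 14 of 71 genes tested had an unadjusted p under 0.05 with a higher level and 2 with a lower one in CDKO iMeLC. In CDKO hESC 6 of 68 were higher and 2 lower. Of all genes 10.5% were lower by that rule in iMeLC. No share is set beside the other counts, which only describe the lists. DESeq2 called 2 higher (FEZ1 and DNMT3L) and 1 lower (RELL2) in iMeLC and 1 higher (REST) in hESC. Over all genes it called 3.15% higher and 4.14% lower in iMeLC and 1.73% higher in hESC.

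Between the stages 32.1% of all genes were called higher and 27.7% lower in CDKO, and 29.5% and 19.9% in CTRL. Of the 17 regulators 13 rose and 2 fell in CDKO, and 12 rose and 2 fell in CTRL. The effectors rose for 12 of 15 and fell for 1 in each genotype. Of 8 methylation enzymes 3 rose and 4 fell in CDKO, and 2 rose and 4 fell in CTRL. Genes on 5q31 outside the clusters rose for 11 of 23 and fell for 5 in CDKO, and rose for 10 and fell for 5 in CTRL, with median log2 fold changes of 0.02 and 0.07.

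Non-clustered protocadherins, which are single genes outside the clusters, had 3 of 12 called higher and 1 lower in CDKO hESC, against 0.598% and 0.714% of all genes. They were PCDH17 (log2 fold change 1.43 ± 0.255, adjusted p = 0.0315), PCDH19 (1.40 ± 0.202, adjusted p = 0.016), CDHR1 (0.75 ± 0.134, adjusted p = 0.0315) and, lower, PCDH11X (-0.79 ± 0.134, adjusted p = 0.0282). In iMeLC edgeR called 0 of 13, with 4 higher and 1 lower at an unadjusted p under 0.05. DESeq2 called 2 higher, PCDH9 and PCDH15, where it called 3.15% of all genes higher.

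Of the marker lists for stem cells, mesoderm, neural cells, fibroblasts, endoderm and amnion or trophectoderm, edgeR called 0 of 54 genes between the genotypes in iMeLC and 0 of 45 in hESC. At an unadjusted p under 0.05 there were 11 higher and 2 lower in iMeLC and 12 higher and 3 lower in hESC. Of all genes 10.5% were lower by that rule in iMeLC, and no share is set beside the other counts. DESeq2 called 4 higher and 1 lower in iMeLC and 2 higher in hESC. Over all genes it called 3.15% higher and 4.14% lower in iMeLC and 1.73% higher in hESC. The endoderm list had the highest median log2 fold change of these lists, 1.87 in iMeLC and 2.28 in hESC. Endoderm markers summed to 718 to 1570 CPM in CDKO iMeLC, 49.5 to 479 CPM in CTRL iMeLC, 44.6 to 507 CPM in CDKO hESC and 22.8 to 82.2 CPM in CTRL hESC. Their part in the protocadherin levels was not tested. Without CDKO hESC 3, the hESC library highest in those markers, PCDHGC4 had a log2 fold change of 1.52 (adjusted p = 0.0495).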

How the data were processed

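The authors deposited 1 table of read counts per gene for hESC and 1 for iMeLC, each with 6 libraries. The submitters' processing notes name FastQC, cutadapt, edgeR and the build GRCh38. No source used here names the aligner, the counter, the annotation or the strand setting, and the labels' protocols name a stranded total RNA kit. Deposited counts were used as they are. hESC columns name genotype and replicate only, iMeLC columns name the line. No 2 libraries agreed within sampling noise.

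Genotypes were compared with edgeR 4.0.16 (R 4.3.3; TMM, filterByExpr, quasi-likelihood F-test, Benjamini-Hochberg adjustment) over the 6 libraries of a stage, and stages and the interaction over all 12. The test was checked on simulated counts. Alternatives were DESeq2 1.42.0, its size factors in edgeR, no filter, other libraries in the fit and each library left out. p-values measure the spread between libraries, which the labels tie to lines in iMeLC.

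Members and gene lists were chosen with earlier results of these data known. Named genes were members called between the genotypes or in the interaction, the C-type genes, the 2 of each cluster with the highest level per own exon length, the called member of each cluster and direction with the lowest adjusted p between stages, and up to 4 called genes of each other list; others are marked as named later. Exons came from GENCODE release 29 and promoters from RefSeq. Proteins were not used here.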

Additional observations from a re-analysis of the deposited data

How the results depend on the processing

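Size factors as in DESeq2 left each count of called members within 1.5 times its value. Between the genotypes in hESC 1 member was called higher, with 6 when no filter was used and 3 by DESeq2, and 1 lower, with 2, 2 by DESeq2 and 0 in the fit over all 12 libraries. Omitting 1 library gave 0 to 2 higher and 0 to 2 lower, where 0.00566% to 1.57% and 0.0227% to 1.21% of all genes were called. In iMeLC 1 was called higher, with 2 in the fit over 12 libraries, 3 by DESeq2 and 0 to 6 over omissions, and 0 lower, with 3 without the filter, 8 over 12 libraries, 7 by DESeq2 and 0 to 7 over omissions. Of all genes the fit over 12 libraries called 2.99% higher and 3.47% lower, and DESeq2 3.15% and 4.14%. Without the filter 0.779% were lower, and omissions gave 0.024% to 7.1% higher and 0.048% to 5.69% lower. Omissions gave 3 to 3 higher and 23 to 29 lower between the stages in CDKO, and 1 to 4 higher and 9 to 20 lower in CTRL (9 without CTRL hESC 1, and 1 higher without CTRL hESC 1 or 3). Over the same omissions 26.9% to 30.8% of all genes were called higher and 21.1% to 27.9% lower in CDKO. In CTRL 24.7% to 30.5% were called higher and 12.6% to 22.4% lower. In the interaction 0 were called higher and 0 lower, with 1 lower by DESeq2, 0 to 0 higher and 0 to 1 lower over omissions.

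Scaled by library totals, the alpha cluster summed to 112 CPM in CDKO iMeLC, 114 in CTRL iMeLC, 146 in CDKO hESC and 142 in CTRL hESC, beta to 89, 95.6, 155 and 138, gamma to 129, 116, 207 and 177, and all members to 330, 326, 508 and 456. In iMeLC alpha was thus lower in CDKO with totals (112 against 114) and higher with TMM (130 against 125), and beta was lower with totals (89 against 95.6) and at 104 in both with TMM. Per whole exon length 0 alpha and 1 gamma genes reached the level threshold.

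Signs turned for uncalled values near 0. In hESC between the genotypes PCDHB2 was -0.01 without the filter, 0 in the fit over 12 libraries and by DESeq2, and -0.04 to 0.03 over omissions; PCDHAC1 -0.12 to 0.22; PCDHA1 -0.21 to 0.29; PCDHB15 -0.02 to 0.11. In the interaction PCDHAC2 was -0.33 to 0.29, PCDHGC5 -0.03 to 0.44 and PCDHA10 -0.05 to 0.13. The cause was not tested. In omissions that leave a group with 2 libraries the spread is pooled over groups.

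No paired analysis was possible because the hESC columns carry no line number, so the fit with line as a block was not run. The depth of 12517593 to 18855099 counts limits hESC most for the low beta genes.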

Other observations

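Deviations of single libraries from their group's mean were set side by side across the stages for the 53 genes, as a description with no test. They share cluster, depth and group mean. In CDKO the deviations of CDKO1105 iMeLC gave a Pearson r of 0.41 with CDKO hESC 2 and those of CDKO1312 iMeLC one of 0.50 with CDKO hESC 3, while CDKO1102 iMeLC lay between -0.09 and 0.06 with all 3. PCDHA6 had the largest deviation in both CDKO1105 iMeLC and CDKO hESC 2 (-1.74 and -1.16). PCDHA7 had it in both CDKO1312 iMeLC and CDKO hESC 3 (1.05 and 0.95). Single genes thus weigh heavily in these r values, which were not computed without them. In CTRL CTRL1106 iMeLC gave 0.36 with CTRL hESC 2. The remaining pairs lay between -0.50 and 0.14. The labels give no tie between these libraries and none is assigned here.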
